A study of Mus musculus with 4 samples.

Results

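Cycling B-lineage cells were examined in draining lymph nodes of mice given extracellular vesicles (EVs) from induced pluripotent stem cells (iPSCs) and of control mice. A cell counted as a B cell when it held at least 1 UMI of Cd79a and none of Cd3d, Cd3e or Cd3g, and as cycling when Mki67, Top2a, Birc5 and Ube2c together reached at least 3 UMIs and Jchain stayed under 5. A UMI, or unique molecular identifier, marks 1 captured mRNA molecule. There were 98 such cells among 14267 B cells and 33310 cells of all kinds, which is 0.687% of the B cells and 0.294% of the cells. Control libraries 1 and 2 gave 7 and 17 of them, and EV libraries 1 and 2 gave 45 and 29.

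All mice were wild type, of the C57BL/6 strain. The EV group received 100 µg of iPSC EVs in total under the skin, and the study's methods state that control animals were injected with PBS and that nodes were taken after 5 days. The sample labels differ on both points, since they list the controls as without treatment and a treatment of 24 h. Each group has 2 libraries made with a droplet method that tags mRNA at its 3′ end, from dissociated nodes without prior enrichment. The methods call them biological replicates without saying how many mice or nodes went into each, and neither source gives the age of the mice, so p-values measure the spread between these libraries. The files hold 50749656 and 58100433 UMIs for Control 1 and 2, and 68116085 and 70418672 for EV 1 and 2. After filtering, 8191, 7974, 8382 and 8763 cells remained in the same order, of which 2883, 2411, 4741 and 4232 were B cells. No treatment that the groups share is given.

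B cells in lymph nodes mostly rest as naive follicular cells, which carry IgM and IgD and circulate. After they meet antigen, activated B cells divide, either as plasmablasts on the way to antibody secretion or in germinal centers, where they mutate and switch their antibody genes. The 4 genes that defined cycling act late in the cell cycle. Mki67 encodes the Ki-67 protein, which coats mitotic chromosomes. Top2a encodes the topoisomerase that untangles sister DNA, Birc5 encodes survivin, a part of the chromosomal passenger complex, and Ube2c encodes a ubiquitin-conjugating enzyme of the anaphase-promoting complex. Cd79a, the B-lineage gene of the gate, encodes a signaling chain of the B cell receptor.

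On the GRCm38 build, Mki67 (ENSMUSG00000031004) lies on the minus strand of chromosome 7 from 135689784 to 135716361, Top2a (ENSMUSG00000020914) on the minus strand of chromosome 11 from 98992943 to 99024189, and Birc5 (ENSMUSG00000017716) on the plus strand of chromosome 11 from 117849251 to 117855743. Ube2c (ENSMUSG00000001403) lies on the plus strand of chromosome 2 from 164769898 to 164778822. These genes rise together late in the cell cycle, and their promoters are shown because such genes are known for the CCAAT box and for the cell cycle homology region, searched here as TTTGAA. For 3 of them the 250 bases before the RefSeq start (GRCm38.p6) follow, 5′ to 3′ on the gene's strand, with every match to these motifs, on either strand, in capitals.
Mki67, chr7:135716380-135716629, minus strand: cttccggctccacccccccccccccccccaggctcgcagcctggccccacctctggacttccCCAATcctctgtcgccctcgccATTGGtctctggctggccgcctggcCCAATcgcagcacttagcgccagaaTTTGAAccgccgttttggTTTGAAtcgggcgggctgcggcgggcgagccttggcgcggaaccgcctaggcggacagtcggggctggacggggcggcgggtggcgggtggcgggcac
Top2a, chr11:99024190-99024439, minus strand: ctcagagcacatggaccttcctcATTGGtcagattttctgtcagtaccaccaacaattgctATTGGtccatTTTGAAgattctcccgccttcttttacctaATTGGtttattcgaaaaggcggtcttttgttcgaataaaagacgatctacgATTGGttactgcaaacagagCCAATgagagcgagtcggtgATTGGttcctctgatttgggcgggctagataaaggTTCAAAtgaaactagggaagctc
Birc5, chr11:117848987-117849236, plus strand: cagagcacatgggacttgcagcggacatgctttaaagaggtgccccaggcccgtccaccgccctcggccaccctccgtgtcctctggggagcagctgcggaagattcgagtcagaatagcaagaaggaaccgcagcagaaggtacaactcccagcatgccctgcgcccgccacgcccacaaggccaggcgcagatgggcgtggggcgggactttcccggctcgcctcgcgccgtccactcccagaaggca
The stretch of Ube2c runs past the annotated start of the gene at 164769898 and is given by its counts alone. Both motifs were searched on both strands. The Mki67 stretch held 2 TTTGAA and 3 CCAAT matches, that of Top2a 2 and 6, that of Ube2c 1 and 6, and that of Birc5 0 of either. Over all 27025 genes with a promoter in the RefSeq table, 18.3% held TTTGAA and 37.5% held CCAAT. Of a list of 40 mitosis genes, 35 matched the table, and 28.6% of them held TTTGAA and 77.1% CCAAT. Of 31 matched genes of DNA replication, the shares were 12.9% and 61.3%. These are letter matches, with no binding measured.

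The 4 gate genes were not detected evenly. Top2a had a UMI in 75 of the 98 cells, Birc5 in 70, Ube2c in 63 and Mki67 in 45, and all 4 were present in 2, 0, 11 and 8 cells of Control 1, Control 2, EV 1 and EV 2. The median sum over the 4 genes was 6, 7, 5 and 7 UMIs in the same order, and the highest was 36, 27, 103 and 138. Just inside the threshold, 22 cells had a sum of 3 with a median of 9.5 UMIs over the mitosis list, and 15 cells had a sum of 4 with a median of 21. Just outside it, 59 B cells had a sum of 2 and a median of 4 mitosis UMIs. By library, the cells with a sum of 3 numbered 2, 1, 11 and 8, with medians of 1.5, 20, 23 and 9.5 mitosis UMIs, so that the 2 of Control 1 lay below the cells just outside the gate in the same library (median 4). The remaining 61 members, with a sum of at least 5, had a median of 58. Free RNA in the droplets can give stray UMIs. In C1q-expressing macrophages, taken as another cell type, 1 of 155 cells reached a sum of 3. It lay in EV 1, at 2.08% of the macrophages (exact binomial interval 0.0527 to 11.1%), where cycling cells were 0.949% of B cells. The upper limits were 12.3% in Control 1, 8.41% in Control 2 and 9.49% in EV 2. With so few macrophages, the count cannot show whether stray UMIs reach the threshold less often than B cells did.

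Cycling cells made up 0.243% of the B cells in Control 1 and 0.705% in Control 2 (exact Clopper-Pearson 95% intervals 0.0977 to 0.500% and 0.411 to 1.13%). In EV 1 the share was 0.949% (0.693 to 1.27%) and in EV 2 0.685% (0.459 to 0.983%). These intervals cover counting error only. EV 2 lay below Control 2, so the groups overlapped. The means were 0.474% ± 0.327 for Control and 0.817% ± 0.187 for EV (SD, n = 2 each), a log2 ratio of 0.79, with p = 0.667 in a two-sided exact permutation test. With 2 libraries against 2, an exact permutation test cannot go below p = 0.333. The ratio held its direction under every alternative gate that was run, from 0.37 to 1.53 on the log2 scale, but the groups ceased to overlap when each cell was thinned to 3000 UMIs (log2 ratio 1.45) and when the Jchain limit was dropped (1.53), and also with at least 3 Cd79a UMIs (0.95) and with at least 2 UMIs of other B cell genes (0.76). The thinned setting applied every gate to the thinned counts, so cells over the Jchain limit at full depth could come under it, and it held 4, 13, 43 and 43 cells. Depth and the Jchain limit therefore changed together there. With a sum of at least 1 UMI in thinned cells, the log2 ratio was 0.46 on 44, 58, 134 and 122 cells, without overlap.

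As a share of all cells, the cycling B-lineage cells took 0.0855% in Control 1, 0.213% in Control 2, 0.537% in EV 1 and 0.331% in EV 2, without overlap (log2 ratio 1.54, exact permutation p = 0.333, the smallest that the design allows). B cells as a whole were 35.2% and 30.2% of the Control cells and 56.6% and 48.3% of the EV cells, so the denominators differed between the groups as well. Cycling T cells, chosen by the same sum of at least 3 among cells with CD3 and without Cd79a UMIs, were 0.841% and 1.06% of T cells in Control and 1.39% and 1.80% in EV (log2 ratio 0.75, exact permutation p = 0.333). With the study's upper limits on cells they were 0.557%, 0.666%, 0.478% and 0.790%, with overlap (log2 ratio 0.051). The cycling share of B cells lay below that of T cells in 4 of 4 libraries, but the B cell gate has a Jchain limit and the T cell gate has none. With the cells over the Jchain limit counted, cycling B cells were 0.347%, 1.04%, 1.94% and 2.06% of B cells, above the T cell share in both EV libraries and below it in both Control libraries. Under the limit, the log2 ratio of the B to the T share was -1.79, -0.59, -0.55 and -1.39 in Control 1, Control 2, EV 1 and EV 2, with p = 0.667 for EV against Control in the exact permutation test.

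**Figure D1:**
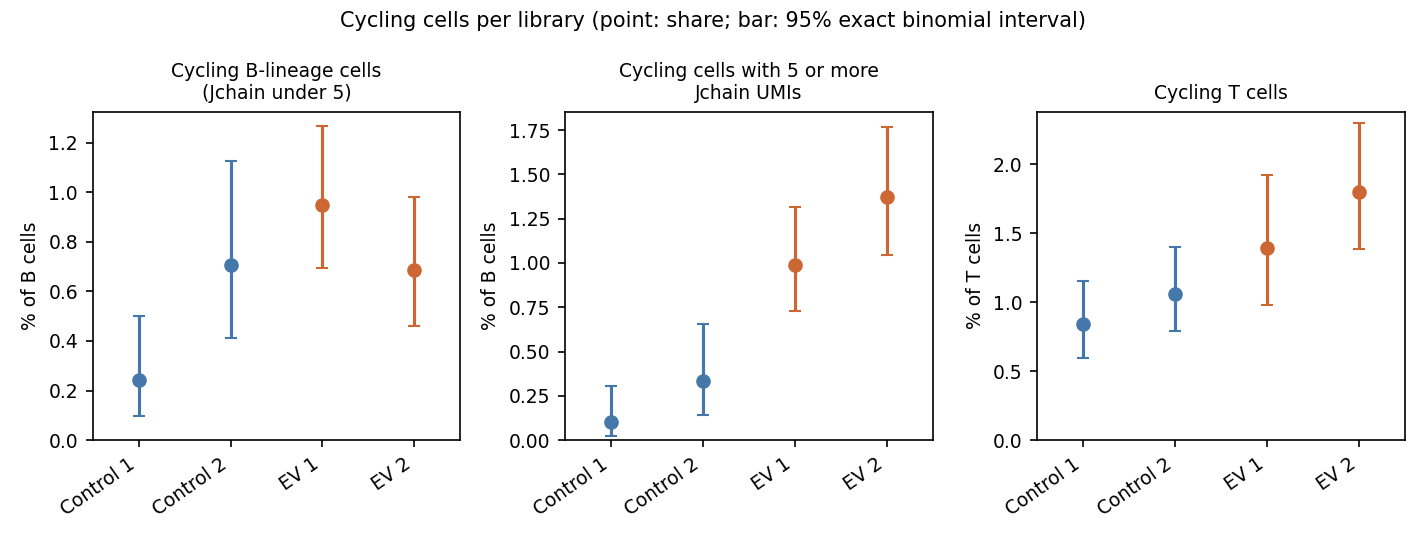
Share of cycling cells per library in percent (points) with 95% exact binomial intervals (bars), for cycling B-lineage cells and for cycling B cells with 5 or more Jchain UMIs, both over B cells, and for cycling T cells over T cells. Control libraries are blue and EV libraries orange. For the cycling B-lineage cells, EV 2 at 0.685% lies below Control 2 at 0.705%, whereas in the other panels both EV libraries lie above both Control libraries. With the study's upper limits the T cell shares overlapped.

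The Jchain limit kept out cells that carry the joining chain of secreted IgM and IgA, a plasmablast gene that germinal center cells can also express. B cells with 5 or more Jchain UMIs numbered 144, of which 116 reached the same cycling sum, with 3, 8, 47 and 58 in Control 1, Control 2, EV 1 and EV 2. They made up 0.104% and 0.332% of Control B cells and 0.991% and 1.37% of EV B cells (log2 ratio 2.44, exact permutation p = 0.333). These cells were deeper than the cells under the limit, at a median of 25471 UMIs. A deeper cell passes a Jchain limit less easily, and the part of depth in this count was not tested. After thinning to 3000 UMIs, at least 2 UMIs of 6 germinal center genes were present in a mean of 76.8% of the Jchain-high and 35.3% of the Jchain-limited cycling cells per library (difference 41.4 percentage points, SD 23.8). The Jchain-high cells were higher in 4 of 4 libraries (exact paired permutation p = 0.125, the smallest possible).

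Depth varied between the libraries. The median cycling B-lineage cell held 5121 UMIs in Control 1, 4060 in Control 2, 6077 in EV 1 and 7854 in EV 2, whereas the median resting B cell, with a sum of 0 over the 4 genes, held 4115, 4866, 5783 and 5593.5. All UMIs of the cycling cells summed to 42364, 95508, 564372 and 353893, and the largest cell took 23.3%, 17.1%, 9.96% and 11.1% of its library's sum. There were 19 cells, 11 of EV 1 and 8 of EV 2, above the upper limits on genes and UMIs that the study applied, which is 19.4% of the cycling cells against 1.04% of all B cells. Without cells over these limits, the cycling shares of B cells were 0.243%, 0.707%, 0.728% and 0.504%, a log2 ratio of 0.38, with overlap. A doublet caller (Scrublet) marked 3 cells, all in EV 2. No barcode of a cycling B-lineage cell was shared between libraries. The label was held by most cells beyond Cd79a itself, since 10 of the 98 cells had fewer than 2 UMIs over the other B cell genes of the list (0, 2, 8 and 0 by library).

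The mitochondrial share split the cells. Under 1% of UMIs came from mitochondrial genes in 2, 8, 22 and 9 cells, 41.8% of all, against 0.367% of resting B cells. In cycling T cells the share of such cells was 13.2%, 4.0%, 0% and 3.17% by library. The 41 cells under 1% had a median of 3470 UMIs and 31.2% of UMIs from ribosomal protein genes, 18 of them held the germinal center genes and 0 held at least 2 UMIs of Ighd and Fcer2a. The other 57 cells had a median of 12903 UMIs and 22.8% ribosomal protein UMIs. Of these, 24 held the germinal center genes and 41 held at least 2 UMIs of Ighd and Fcer2a. Their median UMIs were 5121, 4592, 19506 and 14093 in Control 1, Control 2, EV 1 and EV 2. In the same order, the cells under 1% had medians of 5929, 3823.5, 3519.5 and 2399. The 1% line was drawn after these values were seen, so the split is a description. The part of these cells in the results was not tested beyond leaving them out, after which the shares of B cells were 0.174%, 0.378%, 0.491% and 0.475% (log2 ratio 0.81) and the groups no longer overlapped.

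**Figure D2:**
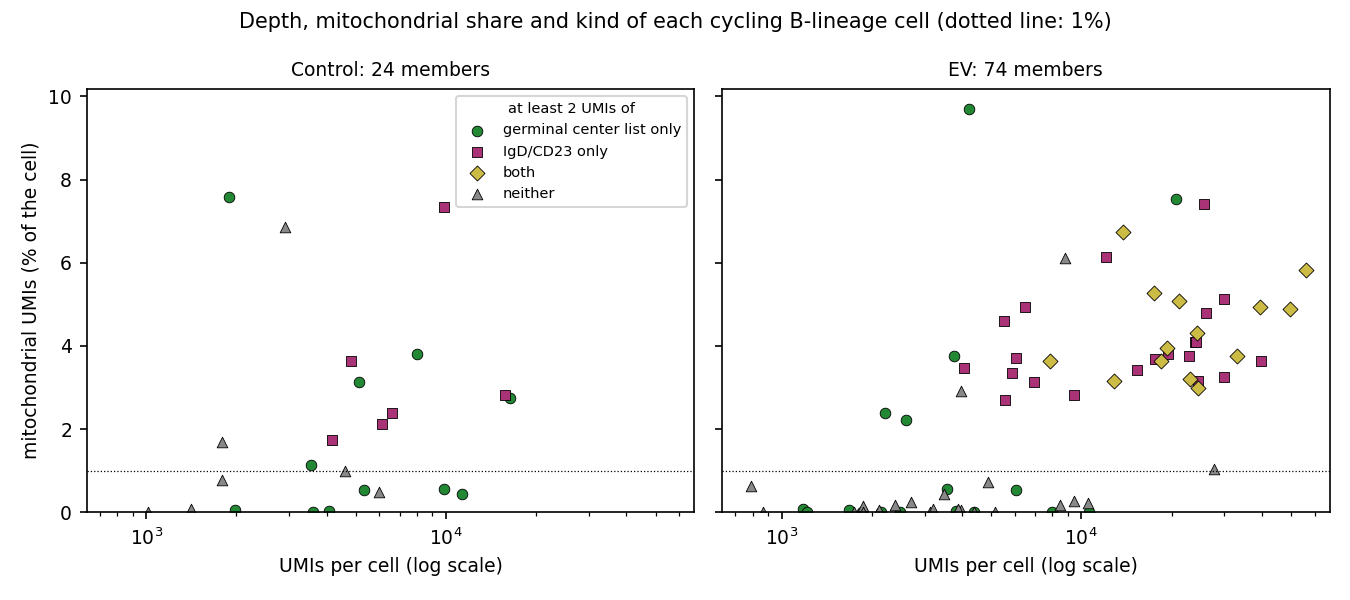
Each symbol is 1 cycling B-lineage cell, with its UMIs on a log scale (x axis) and the percent of its UMIs from mitochondrial genes (y axis), for 24 Control cells (left) and 74 EV cells (right). Shape and color give which of the germinal center list and the IgD/CD23 pair (Ighd, Fcer2a) reach 2 UMIs, and the dotted line marks 1%. Of the cells below the line, 0 hold the IgD/CD23 pair, and the cells that hold both lists are EV cells. After thinning to 3000 UMIs, 1 cell of EV 1 and 2 of EV 2 hold both.

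Several kinds of B cell were found among the cycling cells. At least 2 UMIs of the 6 germinal center genes, among them S1pr2, Mef2b, Gcsam, Rgs13 and Mybl1, were present in 42 cells, which is 42.9%, 47.1%, 46.7% and 34.5% of the cells of Control 1, Control 2, EV 1 and EV 2, against 1.58% of resting B cells. Ighd and Fcer2a, which encode the IgD heavy chain and the CD23 receptor of naive cells, reached 2 UMIs in 41 cells, at 57.1%, 11.8%, 42.2% and 55.2%, against 96.8% of resting B cells. Both conditions were met by 14 cells, 8 of EV 1 and 6 of EV 2, and neither by 29. Cells meeting both numbered 1 in EV 1 and 2 in EV 2 after thinning, and 3 and 3 with the study's upper limits. The groups overlapped in the germinal center share and in the IgD/CD23 share. After thinning to 3000 UMIs the germinal center share was 33.3% and 63.6% in Control and 23.5% and 20.8% in EV, without overlap (exact permutation p = 0.333), and it rests on 2, 7, 8 and 5 cells.

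Antibody class also set the cycling cells apart from the resting ones. Most heavy chain UMIs came from IgM or IgD in 70 cells, from IgG in 18 and from IgA in 0, and 10 cells had no leading class, at a tie or without heavy chain UMIs. Among 13613 resting B cells, IgG led in 7. The IgG cells numbered 0, 5, 9 and 4 in Control 1, Control 2, EV 1 and EV 2, so the groups overlapped. From 1 to 4 Jchain UMIs were present in 2, 11, 15 and 9 cells, 37.8% of all, against 0.558% of resting B cells. Seen from the other side, the cycling share was 33.3%, 53.3%, 65.0% and 40.0% among all B cells under the Jchain limit, whatever their sum over the 4 genes, that held the germinal center genes without the IgD/CD23 pair (3 of 9, 8 of 15, 13 of 20 and 4 of 10 cells). Among cells with the IgD/CD23 pair it was 0.145%, 0.0873%, 0.423% and 0.395%, with both EV libraries above both Control libraries, from 4, 2, 19 and 16 cycling cells. With the study's upper limits 4, 2, 8 and 10 of them were left. Many of the 41 sat at the edge of the gate, since 2, 0, 8 and 6 of them had a sum of exactly 3. Counting only those with a sum of at least 5 left 2, 1, 10 and 9 cells, or 0.0724%, 0.0436%, 0.223% and 0.222%. The IgD/CD23 pair was present in 78.0% of B cells just outside the gate, with a sum of 2, in 72.7% of those with a sum of 3, in 20% of those with a sum of 4 and in 36.1% of those with a sum of at least 5.

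**Figure D3:**
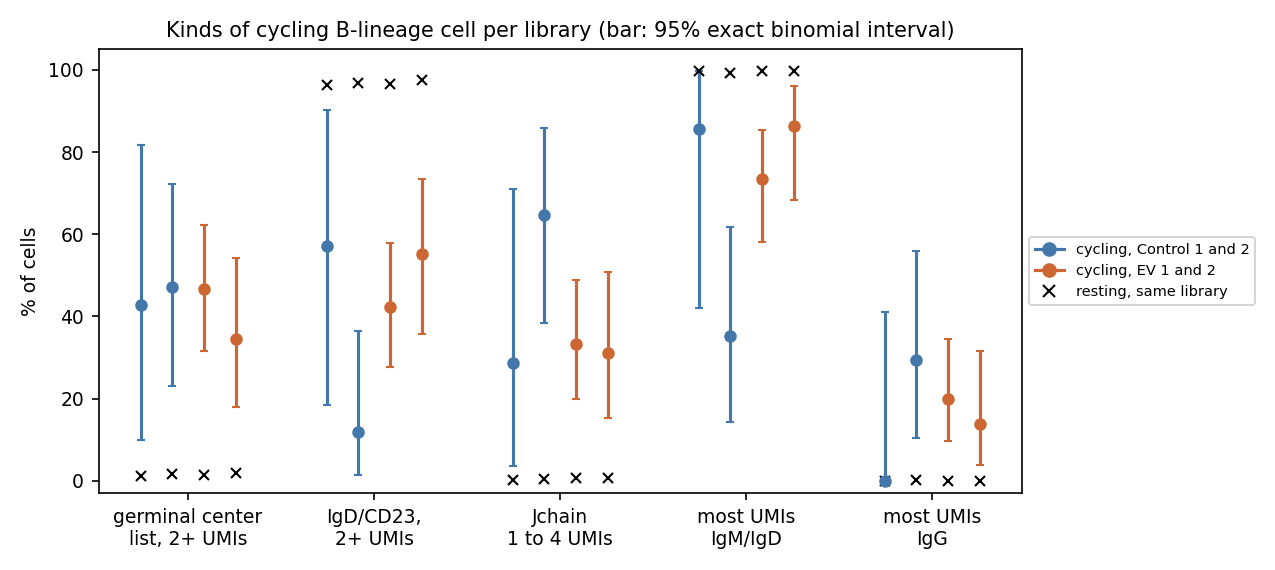
Percent of cycling B-lineage cells of each kind per library (points, blue Control, orange EV) with 95% exact binomial intervals (bars), and the same percent in resting B cells of that library (crosses). In every library the germinal center list and Jchain lie above the resting cells and the IgD/CD23 pair below them. The Control 1 points rest on 7 cells.

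The gene content of the cycling cells is described next against resting B cells, with no test, because the rule used this contrast. Levels of lists are in CPM, UMIs of the list scaled to all UMIs of the same cells. Levels of single genes are the CPM of the edgeR fits, scaled to the UMIs of the genes tested and by TMM, and so are not on the scale of the list sums. The mitosis list, summed over its genes, stood at 9631, 9025, 5592 and 5733 CPM in Control 1, Control 2, EV 1 and EV 2, and at 434 to 487 in resting cells. Of its 40 genes, 34 were higher than in resting cells in all 4 libraries and 0 were lower, with a median fold of 36.4. DNA replication genes summed to 2337, 5937, 3988 and 4239 CPM against 621 to 643. Of these genes, 22 of 36 were higher in all 4 libraries and 1 was lower. In this list Pclaf, a PCNA-binding factor, was at 505, 1505, 728 and 721 CPM (resting cells 0.924 to 1.23). Hmgb2, a chromatin protein of dividing cells, was at 3715, 4652, 2412 and 2081 CPM (resting cells 118 to 159).

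Growth genes were higher as well. The MYC and ribosome biogenesis list stood at 3266 to 4080 CPM against 1483 to 1605. Of its genes, 7 of 16 were higher in all 4 libraries and 1 was lower. Npm1, a nucleolar chaperone, was at 2275, 2525, 1870 and 2047 CPM (482 to 630 in resting cells). Glycolysis genes summed to 3305 to 3989 CPM against 1036 to 1204, with 8 of 13 higher in all 4 libraries and 0 lower. Gapdh, a glycolytic enzyme, was at 1643, 2239, 1587 and 1708 CPM (260 to 362). The heat shock list stood at 5901 to 8423 CPM against 2129 to 3926. Among its 16 genes, 9 were higher in all 4 libraries and 2 were lower.

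Germinal center genes summed to 519, 1361, 565 and 633 CPM against 405 to 466, with 9 of 12 higher in all 4 libraries and 2 lower. Mef2b, a germinal center transcription factor, was at 152, 261, 63.0 and 58.0 CPM, above resting cells in 4 of 4 libraries. The plasma cell and secretory list stood at 1440, 2272, 1745 and 1961 CPM against 1221 to 1321. In it, 5 of 16 genes were higher in all 4 libraries and 2 were lower.

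Naive follicular genes, which keep B cells resting and circulating, summed to 7105, 2743, 6010 and 6934 CPM against 13649 to 16001, and 15 of 16 were lower in all 4 libraries (median fold 0.366). Bank1, a B cell adaptor protein, was at 1163, 597, 1486 and 1781 CPM (3310 to 4342). B cell identity genes summed to 9395, 5937, 8730 and 9277 CPM against 12388 to 13313, with 8 of 15 lower in all 4 libraries and 0 higher. Ebf1, a transcription factor of the B lineage, was at 2275, 1530, 2020 and 2206 CPM (3425 to 3849). Antigen presentation genes stood at 14135 to 20405 CPM against 25535 to 27888, with 10 of 14 lower in all 4 libraries.

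**Figure D4:**
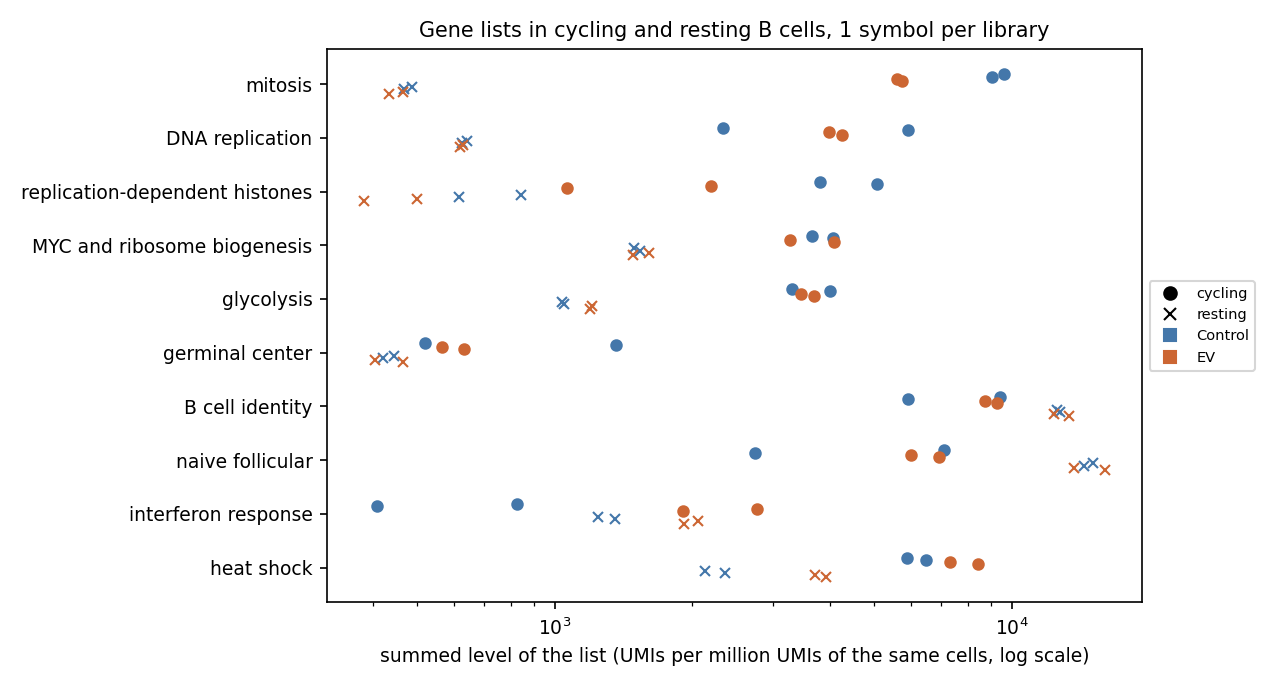
Summed level of 10 gene lists per library in CPM on a log scale (x axis), in cycling B-lineage cells (circles) and resting B cells (crosses), Control blue and EV orange. Mitosis, replication, growth and heat shock lists lie to the right of the resting cells, and naive follicular and B cell identity lists to the left. The interferon circles of Control, at 826 and 408, lie to the left of all crosses and those of EV, at 2769 and 1905, lie near the EV crosses at 2058 and 1913.

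Markers of other cell types were at different levels. The T cell list stood at 47, 52, 32 and 57 CPM (resting B cells 40 to 51), with 9 of 14 genes detected. Its most abundant gene was Lck with 26 UMIs, and Cd3d, Cd3e and Cd3g were at 0 by the rule while Trbc1 and Il7r were at 0 without it. Of the NK cell list only Klrk1 was detected, with 2 UMIs. The macrophage and monocyte list stood at 0, 136, 555 and 11 CPM (resting B cells 54.3, 50.0, 108 and 90.0), led by Lyz2 with 276 UMIs, of which 256 came from 1 cell of EV 1. Of the dendritic cell list, Flt3 led with 36 UMIs and Xcr1 and Clec9a were at 0. The dendritic cell list stood at 47.2, 94.2, 39.0 and 36.7 CPM (resting B cells 21.3 to 40.1). The plasmacytoid dendritic cell list stood at 71, 42, 69 and 82 CPM (62.3 to 86.1) and neutrophil markers had 9 UMIs. Erythroid markers stood at 0, 104.7, 33.7 and 25.4 CPM (9.95, 10.6, 41.3 and 3.49), led by Hbb-bt with 34 UMIs. Pecam1 led the stromal and endothelial markers with 228 UMIs and was at 152, 87.1, 270 and 238 CPM, below resting B cells (441 to 587). The part of these transcripts in the results below was not tested.

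EV and Control were then compared within the cycling cells, with UMIs summed per library. Of 3872 genes tested, 1 was called, which is 0.0258% (edgeR's quasi-likelihood test, Benjamini-Hochberg adjusted p under 0.05), and 441 had an unadjusted p under 0.05, with 274 higher and 167 lower in EV. That gene was Atxn1 (ENSMUSG00000046876, chromosome 13 from 45549755 to 45965008, minus strand), which encodes ataxin-1, a nuclear protein that acts in transcriptional repression. Its UMIs were 0 and 0 in Control 1 and 2, and 180 and 100 in EV 1 and 2, from 19 and 9 cells (adjusted p = 0.0264). With a floor of 3 counts set over the 137872 UMIs of both Control libraries, the pooled ratio of EV to Control was 14.0. That ratio leaves out variation between cells and libraries and is no bound. Of the 180 UMIs in EV 1, 53 came from 1 cell. In resting B cells Atxn1 was at 53.2, 62.6, 58.1 and 67.6 CPM, with overlap between the groups. The call was lost without TMM scaling, without doublets, without cells that hold Jchain and without cells under 1% mitochondrial UMIs (edgeR adjusted p from 0.0802 to 0.557). The fitted log2 difference was 8.92 to 9.32 in these fits against 9.31, and with 0 UMIs in Control it is no bound. With the study's upper limits on cells and with thinned cells Atxn1 was not among the genes tested.

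The next genes in order of p did not pass the adjustment in this fit, though some passed under other settings, given in the closing section. On the higher side in EV, Zeb2, a zinc finger transcription factor, was at 25.3 and 24.9 CPM in Control and 224 and 284 in EV, a log2 difference of 3.31 ± 0.64 (SE, edgeR adjusted p = 0.112). The Control values are 1 and 2 UMIs. Tbc1d5, a regulator of endosomal Rab proteins, was at 50.5, 49.8, 272 and 373 CPM (2 and 4 UMIs in Control, edgeR adjusted p = 0.115). Zeb2 and Tbc1d5 in the EV cells were near the resting levels of 164 to 227 and 360 to 400 CPM, whereas the Control values lay below them. Dock10, a guanine nucleotide exchange factor, was at 202, 74.6, 575 and 565 CPM (edgeR adjusted p = 0.125), and in resting cells it rose from 661 and 679 to 968 and 1389 (edgeR adjusted p = 0.0347). Plac8 was at 152, 162, 809 and 492 CPM (edgeR adjusted p = 0.127), with 158 of its 411 UMIs in EV 1 from 1 cell.

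On the lower side, Hist1h4d, a histone H4 gene, was at 581 and 672 CPM in Control and 136 and 18.3 in EV, a log2 difference of -2.93 ± 0.57 (SE, edgeR adjusted p = 0.112). Hist1h3c was at 177, 224, 43.3 and 15.3 CPM and Hist1h2ae at 404, 572, 156 and 119. Pafah1b3, a subunit of the platelet-activating factor acetylhydrolase, was at 329, 199, 53.2 and 48.9 CPM. Cmss1 was at 3614, 2512, 766 and 156 CPM (edgeR adjusted p = 0.112), and in resting B cells at 2726, 2147, 1201 and 135. Cdk8, which is outside the naming rule and given because the study examined it in T cells of these nodes, was at 783, 448, 211 and 82.5 CPM in cycling cells (log2 difference -1.97 ± 0.46, edgeR adjusted p = 0.137). In resting B cells Cdk8 was at 718, 410, 259 and 90.4 CPM (edgeR adjusted p = 0.0640). Gm42418, an abundant transcript that resembles ribosomal RNA, was at 8492, 10348, 3981 and 904 CPM and followed the same order of libraries in resting cells, at 8269, 9528, 5727 and 872. The part of that transcript in the other genes was not tested.

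**Figure D5:**
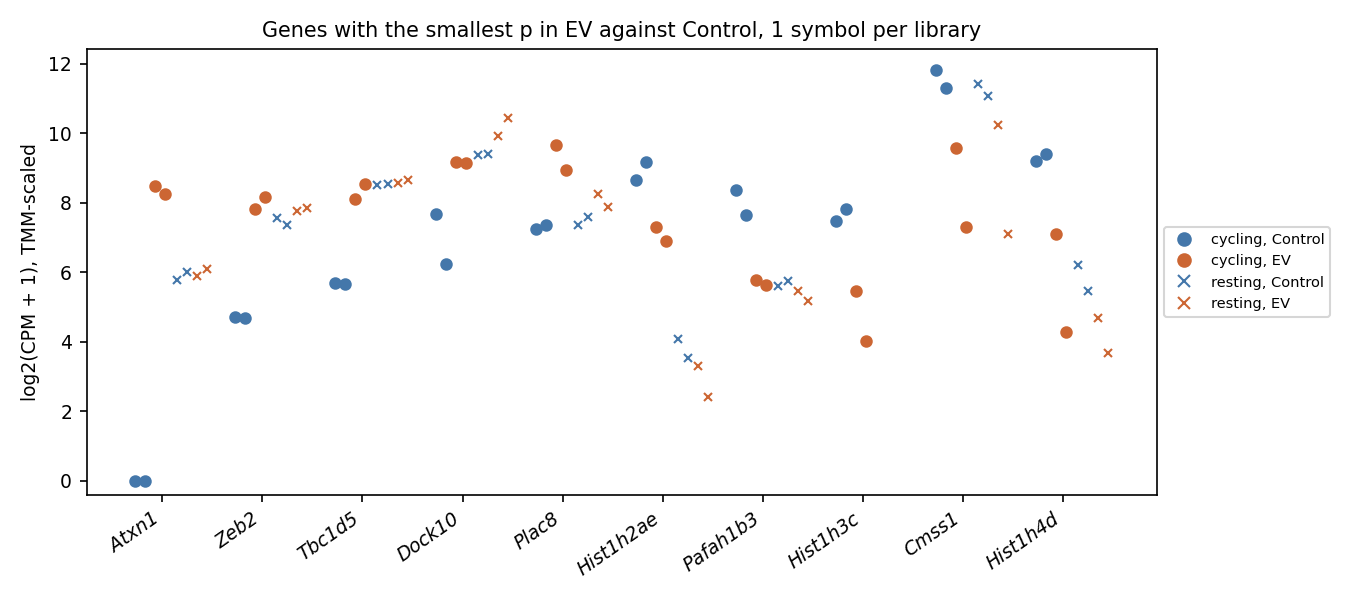
Level of the 10 genes with the smallest p in EV against Control, as log2(CPM + 1) with TMM scaling (y axis), in cycling B-lineage cells (circles) and resting B cells (crosses), 1 symbol per library, Control blue and EV orange. Atxn1 is at 0 in both Control libraries of the cycling cells. The groups of circles do not overlap for any of the 10 genes, of which only Atxn1 passed the adjusted test, and Hist1h3c was not tested in resting cells.

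Across all 3872 genes tested the groups did not overlap for 45.8%, with 25.5% higher and 20.2% lower in EV, so non-overlap alone is common here. The gate genes are given as a description, since each cell was chosen by their sum. Mki67 was at 278, 286, 256 and 330 CPM, Top2a at 758, 734, 429 and 611, Birc5 at 404, 398, 266 and 367, and Ube2c at 885, 597, 406 and 376. The mitosis list had 35 genes tested, of which 0 were called, 20 were lower in EV without overlap and 2 higher, with a median log2 difference of -0.72 against 0.05 over all genes. The direction of that median held with the study's upper limits (-0.81), with thinned cells (-0.54), without cells under 1% mitochondrial UMIs (-0.57) and in cells without Jchain, where it was -0.36. The gate asks for an absolute sum, which a deeper cell reaches at a lower CPM of mitosis genes. The median cell held 5121 and 4060 UMIs in Control and 6077 and 7854 in EV. The thinned fit kept cells that were gated at full depth. The part of this selection in the mitosis values was not tested.

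Replication-dependent histones had 16 of 67 genes tested, with 0 called, 14 lower in EV without overlap, 0 higher and a median log2 difference of -1.72, which was -2.36 without EV 1, -1.09 without EV 2 and -1.09 in cells without Jchain. Without filterByExpr, 12 of 58 histone genes were higher in EV, with a median of -1.21 against 0.68 over all genes. A list set up for abundant nuclear or rRNA-like transcripts held Gm42418 and also the protein-coding genes Cmss1 and Cdk8. Of its 8 genes, 6 were lower in EV without overlap, with a median of -1.72 (-1.30 in resting B cells). Whether the UMIs of Cmss1 and Cdk8 are of that kind was not tested, nor was the part of the list in the histone values. The mRNAs of replication-dependent histones mostly lack a poly(A) tail, so that the method counts only a part of them. The summed histone level was 3800 and 5068 CPM in Control and 2192 and 1062 in EV, and in resting B cells 842, 618, 498 and 383, where 4 of 47 tested fell and the median was -0.83. The resting B cells had 13062 genes tested, of which 2.70% passed, with 232 up and 121 down. The other DNA replication genes gave 3 higher and 3 lower without overlap of 27 tested, and their median of -0.16 turned positive in cells without Jchain (1.11), without Control 2 (1.57), with DESeq2 (0.20), without filterByExpr (0.16), with a sum of at least 5 (0.07) and with a replicate block (0.01).

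Interferon response genes were higher in EV without overlap for all 7 of the 20 listed genes in the files that could be tested, with 0 called and a median log2 difference of 1.92. A gene could enter the test through the EV libraries alone. Control 1 and 2 held 35 and 39 UMIs of the list, with 5 and 9 genes detected. EV 1 and 2 held 1563 and 674 UMIs, with 20 genes detected in each. The count of 7 is therefore a description. Ifi27l2a, an interferon-induced mitochondrial protein gene, was at 480, 174, 1266 and 975 CPM (log2 difference 1.92 ± 0.42, edgeR adjusted p = 0.137). In resting B cells, which come from the same libraries, 18 of 20 interferon genes rose, with a median of 0.92, and Ifi27l2a was at 291, 336, 634 and 504 CPM (edgeR adjusted p = 0.0147). The median was 1.56 with the study's upper limits, 2.47 with DESeq2 and 4.32 without filterByExpr, and it ranged from 1.33 without EV 1 to 2.88 without Control 1 and 6.67 without Control 2. The interaction test called 0 of the 20 genes, where 0.144% of all genes were called, so the count shows no likeness between cycling and resting cells.

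Heat shock genes gave 5 of 13 tested higher in EV without overlap, 0 lower, 0 called and a median of 0.18, while in resting cells 12 of 16 rose with a median of 0.73. The median in cycling cells was 0.09 when thinned, 0.50 without filterByExpr, 0.43 without EV 1, 0.29 without EV 2 and 0.55 without Control 2. Hspa8, the constitutive Hsp70 chaperone, was at 1314, 1741, 2215 and 2426 CPM in cycling cells (edgeR adjusted p = 0.432) and rose from 404 and 443 to 977 and 1049 in resting cells (edgeR adjusted p = 0.00161). Naive follicular genes gave 4 higher and 0 lower of 14 tested (median 0.40), antigen presentation 8 and 2 of 14 (0.35), B cell identity 3 and 1 of 15 (0.17) and germinal center genes 1 and 3 of 7 (-0.43). The last median was -1.35 without Control 1, -1.28 with a sum of at least 5 and -1.73 when thinned, there from 1 gene. Its sign turned with the study's upper limits (0.41) and in cells without Jchain (0.11, from 1 gene). It turned as well without Control 2 (0.77) and without cells under 1% mitochondrial UMIs (0.0072). The naive follicular median was 1.25 without Control 1, 0.14 without Control 2 and -0.09 in cells without Jchain. Cd74, the invariant chain of MHC class II, was at 6142, 7027, 9574 and 10931 CPM (log2 difference 0.64 ± 0.23, edgeR adjusted p = 0.322).

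Whether the EV difference itself differed between cycling and resting B cells was asked with an interaction term, each library being its own block. Of 11832 genes, 17 were called (0.144%, edgeR's quasi-likelihood test, Benjamini-Hochberg), 14 with a more positive difference in cycling cells and 3 with a more negative one. The median difference over all genes tested was 0.49, so the fit as a whole leaned to the positive side. Basp1, a membrane-bound signaling adaptor gene, had 8, 62, 67 and 66 UMIs in cycling cells, at 161, 686, 127 and 194 CPM, whereas resting cells were at 8.28, 7.64, 14.2 and 14.5. The difference of the effects was -2.33 (edgeR adjusted p = 0.000387), and the Control 1 and EV values in cycling cells overlapped. Without 1 library that difference ranged from -3.02 to -0.78. Basp1 was higher in cycling than in resting cells in 4 of 4 libraries.

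Nptn, an adhesion protein gene, had 0, 1, 69 and 51 UMIs in cycling cells, and resting cells were at 128, 138, 127 and 149 CPM (difference 4.28, edgeR adjusted p = 0.0124). Parm1 had 0, 1, 27 and 88 UMIs, from 0, 1, 4 and 2 cells. Fcrl5, an Fc receptor-like gene of B cells, had 0, 0, 85 and 14 UMIs. Its pooled ratio of EV to Control was 4.95 with a floor of 3 counts set over the Control cells. Cyb561a3 had 0, 0, 50 and 17 UMIs, with a pooled ratio of 3.35 at that floor. These ratios pool both EV libraries, leave out variation between cells and libraries, and are no bounds. Fcrl5 was at 161 CPM in EV 1 and 41.1 in EV 2, and 35 of its 85 UMIs in EV 1 came from 1 cell. Cr2, the complement receptor CD21 of mature B cells and a naive follicular gene of the list, was at 60.5, 44.3, 174 and 241 CPM in cycling and 385, 448, 277 and 414 in resting cells (difference 2.35, edgeR adjusted p = 0.0437). On the negative side, Fgf13 had 3, 9, 0 and 4 UMIs, and all 12 UMIs of Agbl1 came from 1 cell of Control 1. Atxn1 was called here too (edgeR adjusted p = 6.22e-08). The other called genes were Inpp4b, Tbc1d5, Cybb, Zeb2, Lyst, Ms4a4c, Txndc16 and Ago2. DESeq2 called 0 of them, and without EV 1 or without EV 2 1 gene was called.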

How the data were processed

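UMI counts per gene for the barcodes kept by Cell Ranger 7.1.0 (genome mm10), whole numbers not normalized and not yet passed through the study's limits on cells, were deposited by the authors for each of 4 libraries (per the labels and the study's methods). The annotation release is not given in the sources used here. Cells with at least 200 genes and under 10% mitochondrial UMIs were kept, without upper limits. Those of the study (at most 5000 genes and 20000 UMIs, under 60% ribosomal protein UMIs) were an alternative, as was removal of doublets, which the main setting left in (Scrublet in scanpy 1.11.5, expected rate 6%). The members and gene lists were chosen with earlier results of these data known.

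UMI counts were summed per library over the cycling B-lineage cells and tested with edgeR 4.0.16 (R 4.3.3, limma 3.58.1, quasi-likelihood test, TMM, filterByExpr, Benjamini-Hochberg, threshold 0.05, no replicate block). The interaction used resting B cells (sum 0 over the 4 genes, under 5 Jchain UMIs) and library as a block. Shares were compared with a two-sided exact permutation test over libraries, and intervals are exact binomial at 95%. Thinning drew 3000 UMIs per cell and left out shallower cells. For gene kinds, this kept 6, 11, 34 and 24 cycling cells of Control 1, Control 2, EV 1 and EV 2. Named genes are the gate genes, the 5 with the smallest p in each direction where fewer were called, called list members, up to 4 abundant members of each list described, and the 5 largest called interaction differences per direction with at least 20 CPM on average. Some results that this rule takes are not reported here. On simulated counts with 200 changed genes among 3872, the edgeR fit in cycling cells recovered 84% of 4-fold and 100% of 8-fold changes, with 13 and 5 false calls. Among 11832 genes, the interaction fit recovered 34% and 59%. Both simulations gave every gene the same dispersion around a pooled profile, without the uneven spread between genes and cells. They therefore do not give the share of changes recovered in the real data. DESeq2 1.42.0 and other alternatives are given in the closing section. Other software was Python 3.11.15, numpy 2.4.6, pandas 2.3.3, scipy 1.17.1 and matplotlib 3.10.9.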

Additional observations from a re-analysis of the deposited data

Results flagged for a closer look

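The interaction fit (edgeR's quasi-likelihood test, Benjamini-Hochberg) called 17 genes whose EV difference differed between cycling and resting B cells. The 8 that the naming rule takes are listed here. The difference of the log2 effects, cycling minus resting, was 14.54 for Atxn1, 13.00 for Fcrl5, 12.74 for Cyb561a3, 7.0 for Parm1 and 4.28 for Nptn. It was -11.85 for Agbl1, -4.05 for Fgf13 and -2.33 for Basp1. Without 1 library, Nptn ranged from 3.71 to 13.45, Fgf13 from -12.3 to -2.74 and Basp1 from -3.02 to -0.78. Atxn1, Fcrl5 and Cyb561a3 had 0 UMIs in the Control cycling cells, and Agbl1 had 0 in the EV cycling cells, so those fitted values depend on the fit and are no bounds. For Parm1, 57 of the 88 UMIs in EV 2 came from 1 cell.

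Cells with UMIs of both CD3 genes and Cd79a, which belong to neither the B nor the T cells above, also reached the cycling sum of 3. They were 0.262% of cells in EV 1 and 0.456% in EV 2, above 0.0488% and 0.0627% in Control 1 and 2 (4, 5, 22 and 40 cells, log2 ratio 2.69, exact permutation p = 0.333, the smallest possible). Their median depth was 28704 UMIs, Scrublet marked 8 of 71, 29 held at least 2 UMIs of the 6 germinal center genes and 45 held the IgD/CD23 pair.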

How the results depend on the processing

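The log2 ratio of the cycling share of B cells kept its direction under every alternative (0.37 to 1.53), as did the share of all cells. Leaving out each library in turn gave 0.21 to 1.75 for the share of B cells, 1.03 to 2.34 for that of all cells and 0.55 to 0.93 for T cells. The T cell ratio of 0.75 was 0.051, with overlap, with the study's upper limits and 1.16 in thinned cells. EV minus Control in the germinal center share was -4.38 percentage points, and -26.3 when thinned, 11.7 without cells under 1% mitochondrial UMIs (an alternative chosen after seeing the data) and -10.5 to 1.71 without 1 library. The other kinds ranged over -8.45 to 36.9 (IgD/CD23), -32.5 to 3.61 (Jchain), -5.94 to 44.5 (IgM or IgD) and -12.5 to 16.9 (IgG) without 1 library.

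The count of 1 called gene in EV against Control was 6 with DESeq2, 37 without filterByExpr, 2 with a sum of at least 5, 3 with at least 2 UMIs of other B cell genes, and 0 by edgeR without TMM, with the study's upper limits, when thinned, without doublets, without Jchain-positive cells and without cells under 1% mitochondrial UMIs (470, 240, 41, 367, 223 and 203 genes at an unadjusted p under 0.05). Without 1 library it ranged from 1 to 449, with 449 without Control 1, 71 without Control 2, 4 without EV 1 and 1 without EV 2. In these fits the lone library of a group is assumed to vary like the other group. The replicate block gave 21 calls, 11 higher and 10 lower, with a correlation of the deviations of the replicate 1 pair of 0.0677 over 3872 genes, so the numbers do not show a pairing. With DESeq2, Cmss1, Hist1h4d, Dock10 and Plac8 passed (DESeq2 adjusted p = 0.00337, 0.0143, 0.0452 and 0.0458). Without filterByExpr these passed again, as did Zeb2 and Tbc1d5 (edgeR adjusted p = 0.00229 and 0.00342). None of these genes, where tested, passed with the study's upper limits, when thinned, without doublets or without TMM. The interaction count of 17 was 0 with DESeq2 and when thinned (289 and 488 genes at an unadjusted p under 0.05), 1 with the study's upper limits, 29 with a sum of at least 5, 6 without Jchain-positive cells and 8 without cells under 1% mitochondrial UMIs. It ranged from 1 to 176 without 1 library, with 176 without Control 1 and 1 without either EV library. Agbl1 ranged from -13.13 to 0.70 without 1 library, and reversed (0.70) without Control 1, which holds its UMIs in cycling cells. For the other changes the cause was not tested. Control 1 holds 42364 UMIs from 7 cells, and changes under 4-fold were not simulated.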

Other observations

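The cycling cells with 5 or more Jchain UMIs, kept out by the rule, held at least 2 UMIs of the 6 germinal center genes in 109 of 116 cells (94.0%), and in 94 of 115 (81.7%) after thinning to 3000 UMIs. Their germinal center list stood at 2091, 2298, 2142 and 2360 CPM in Control 1, Control 2, EV 1 and EV 2, against 519, 1361, 565 and 633 in the cycling cells under the Jchain limit. IgG led the heavy chain UMIs in 47 of them (40.5%), and 11 had under 1% mitochondrial UMIs. Of all B cells with 5 or more Jchain UMIs, 42.9%, 57.1%, 87.0% and 84.1% were cycling. Taken with and without the Jchain limit, cycling B cells were 0.347%, 1.04%, 1.94% and 2.06% of B cells.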
